A study of Mus musculus with 18 samples.

Results

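The RNA of 10 genes for secreted inflammatory signals was followed in mouse hematopoietic progenitor lines before and after deletion of Ddx41, which encodes a DEAD-box RNA helicase. They were chosen by name from the 24062 genes of the count table, and all 10 are in it. The CC chemokines are Ccl2, Ccl3, Ccl4, Ccl6 and Ccl9, the CXC chemokines are Cxcl2, Cxcl10 and Cxcl16, and the cytokines are Il1b and Tnf. Chemokines are small secreted proteins that draw leukocytes along a gradient by binding G protein-coupled receptors, and myeloid cells are a major source of them. Interleukin-1 beta and tumor necrosis factor act at the head of inflammatory cascades. Their receptors activate NF-kB, a transcription factor family, which in turn raises transcription of many chemokine genes and of Il1b and Tnf themselves. Transcripts of many such genes are short-lived, since decay factors bind AU-rich elements in them.

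The cells were lineage-negative bone marrow progenitors from Ddx41-floxed mice, immortalized with a retrovirus that expresses MLL-AF9, a leukemia fusion protein. All groups share this virus, a tamoxifen-activated Cre expressed from the Rosa locus, and a medium with 10 ng/ml each of the cytokines IL-3, SCF and (as the human protein) IL-6. Cells were given 1 µM 4-hydroxytamoxifen (4OHT) or ethanol (EtOH) for 48 h. WT lines are +/+ at Ddx41, Het lines are +/flox before and +/- after 4OHT, and FF lines are flox/flox before and -/- after 4OHT. Every group, of 6 in all, holds 3 libraries that carry the letters A to C. The labels do not say how many lines stand behind a genotype, or that letters are separate cultures, so genotype and line cannot be told apart and p-values measure only the spread between these libraries. The design text gives the purpose as the response of progenitors to loss of Ddx41, sampled ahead of the death of cells that lack both alleles.

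Library totals ran from 24730213 to 49277884 counts. Ddx41 lay at 73.7 to 111.8 CPM, which are counts divided by library size, in FF_EtOH and at 14.6 to 17.7 CPM in FF_4OHT. It lay between 68.0 and 79.1 CPM in Het_EtOH, 41.3 and 58.4 CPM in Het_4OHT, 80.1 and 89.6 CPM in WT_EtOH and 75.5 and 93.0 CPM in WT_4OHT. On a scale that puts WT at 0 and FF at 1, the libraries labelled WT_4OHT C (0.87) and FF_EtOH C (0.029) each had the position of the other line, and they are called the displaced libraries. They also carried the other line's level of the Y-linked gene Eif2s3y, with 86.3 CPM in FF_EtOH C against 0 in the remaining FF libraries, and 0 in WT_4OHT C. Eif2s3y lay between 66.4 and 100.9 CPM in the other WT libraries and between 70.9 and 87.8 CPM in the Het libraries. The FF line thus differs from both other lines in this gene as well as in Ddx41 genotype. Between lines, these differences cannot be told apart. Tgm2, which was lower in 4OHT than in EtOH in the Het and FF lines, had 25.4 CPM in the library labelled WT_EtOH C, which is close to treated cells. It had 480 CPM in the library labelled WT_4OHT C, which is close to untreated cells, against 18.01 and 17.3 CPM in WT_4OHT A and B. So both the line and the treatment on that label go against the values. All 3 were kept under their labels, and results that rest on them are also given without them. Of the genes listed as progenitor markers, the means over all libraries were 367 CPM for Ptprc, 284 CPM for Hoxa9 and 87.9 CPM for Kit. Cd34 and Flt3 of that list were low, at 1.06 and 2.35 CPM.

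Promoter sequence is shown for the genes that passed the test after Ddx41 deletion (Ccl6, Cxcl10 and Il1b) and for the others that hold a match to the NF-kB motif (Cxcl2 and Ccl9). Each run is the 220 bases that end at the transcript start in RefSeq (GRCm38.p6), 5′ to 3′ on the gene's strand. Capitals mark matches to the NF-kB motif or to the interferon-stimulated response element (ISRE), on either strand.
Ccl6 (chr11:83593088-83593307, minus strand): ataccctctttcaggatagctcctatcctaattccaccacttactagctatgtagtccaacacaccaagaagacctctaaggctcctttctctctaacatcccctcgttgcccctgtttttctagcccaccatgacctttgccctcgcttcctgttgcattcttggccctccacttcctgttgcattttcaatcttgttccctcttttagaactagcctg
Il1b (chr2:129371140-129371359, minus strand): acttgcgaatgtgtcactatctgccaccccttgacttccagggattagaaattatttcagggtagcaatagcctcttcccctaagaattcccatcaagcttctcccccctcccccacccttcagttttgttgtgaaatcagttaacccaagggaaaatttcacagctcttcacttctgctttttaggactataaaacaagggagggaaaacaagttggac
Cxcl10 (chr5:92348890-92349109, minus strand): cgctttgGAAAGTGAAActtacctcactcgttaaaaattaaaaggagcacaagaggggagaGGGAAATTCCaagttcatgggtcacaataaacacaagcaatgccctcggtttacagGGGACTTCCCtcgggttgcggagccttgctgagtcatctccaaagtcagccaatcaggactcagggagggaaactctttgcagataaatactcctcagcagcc
Cxcl2 (chr5:90903679-90903898, plus strand): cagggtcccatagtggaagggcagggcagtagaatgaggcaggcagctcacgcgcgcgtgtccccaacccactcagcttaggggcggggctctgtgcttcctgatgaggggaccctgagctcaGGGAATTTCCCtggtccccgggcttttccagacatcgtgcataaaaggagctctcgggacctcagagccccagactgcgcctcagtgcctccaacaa
Ccl9 (chr11:83578637-83578856, minus strand): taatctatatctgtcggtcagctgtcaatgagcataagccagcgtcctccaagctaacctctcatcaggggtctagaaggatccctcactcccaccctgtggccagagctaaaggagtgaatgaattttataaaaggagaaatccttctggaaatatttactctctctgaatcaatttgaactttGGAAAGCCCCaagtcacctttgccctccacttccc

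In the 250 bases before the start, 3 of the 7 matched promoters held the NF-kB motif, against 3.90% of all 32851 promoters in the table. Cxcl10 held 2 matches, at positions -159 and -103 from the start, Cxcl2 held 2 that overlap on opposite strands, at -97 and -96, and Ccl9 held 1 at -35. The ISRE motif was found in 1 of 7 (Cxcl10, at -213) against 2.98% of all promoters. The AP-1 letters TGANTCA were found in 2 of 7 (Cxcl10 and Ccl9) against 6.75%, and TATAAA in 3 of 7 (Il1b, Ccl9 and Tnf) against 12.4%. Of the genes that passed the test after deletion, Cxcl10 held NF-kB matches, and the windows of Ccl6 and Il1b held no match to the NF-kB or ISRE motif. A match is a run of letters and does not show binding.

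All CC chemokines of the set and Cxcl16 lie on chromosome 11 (GRCm38, GENCODE M21). Ccl9 (83572919 to 83578636), Ccl6 (83587882 to 83593087), Ccl3 (83647844 to 83649355) and Ccl4 (83662584 to 83664683) sit side by side, with Ccl4 alone on the plus strand. Ccl2 (82035571 to 82037453) and Cxcl16 (70453983 to 70459984) lie elsewhere on that chromosome, and Cxcl2 (90903871 to 90905938) and Cxcl10 (92346638 to 92348889) are on chromosome 5. Il1b (129364570 to 129371139) is on chromosome 2 and Tnf (35199381 to 35202007) on chromosome 17. Whether counting used strand is not given, so reads of antisense partners cannot be told apart. The partner counts were low, at no more than 0.97 CPM in any library for E230016K23Rik (over Ccl6), 0.40 CPM for Il1bos (over Il1b) and 0.30 CPM for Art3 (over Cxcl10). Of the stretches of 50 bases in the transcripts, 16.9% of those of Cxcl16 also occur in Zmynd15, 5.84% of those of Cxcl2 in Cxcl3 and 3.59% of those of Cxcl10 in Art3.

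The genes spanned a wide range of abundance. Per kilobase of exon, the WT_EtOH level was 50.1 ± 11.7 CPM for Ccl3, a ligand of Ccr1 (SD, n = 3 here and below). Ccl6 followed at 32.6 ± 6.53 and Ccl9, like Ccl6 a rodent ligand of Ccr1, at 26.5 ± 3.13, and that pair differed by less than its spread. Tnf stood at 12.5 ± 4.08 CPM per kilobase and Ccl4, a chemokine closely related to Ccl3, at 4.24 ± 0.65. Il1b (0.53 ± 0.12), Ccl2 (0.42 ± 0.12), Cxcl10 (0.21 ± 0.05), Cxcl2 (0.063 ± 0.095) and Cxcl16 (0.014 ± 0.012) were all under 1 CPM per kilobase, and Il1b and Ccl2 lay within their spread of each other. The summed level of the 10 genes was 193 to 219 CPM in WT_EtOH, 248 to 389 CPM in WT_4OHT, 482 to 613 CPM in Het_EtOH and 678 to 850 CPM in Het_4OHT. In FF_EtOH it was 141 CPM in the library labelled C and 542 and 663 CPM in the others, and in FF_4OHT it was 847 to 926 CPM. These sums are made up mostly of Ccl3, Ccl6 and Ccl9.

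**Figure D1:**
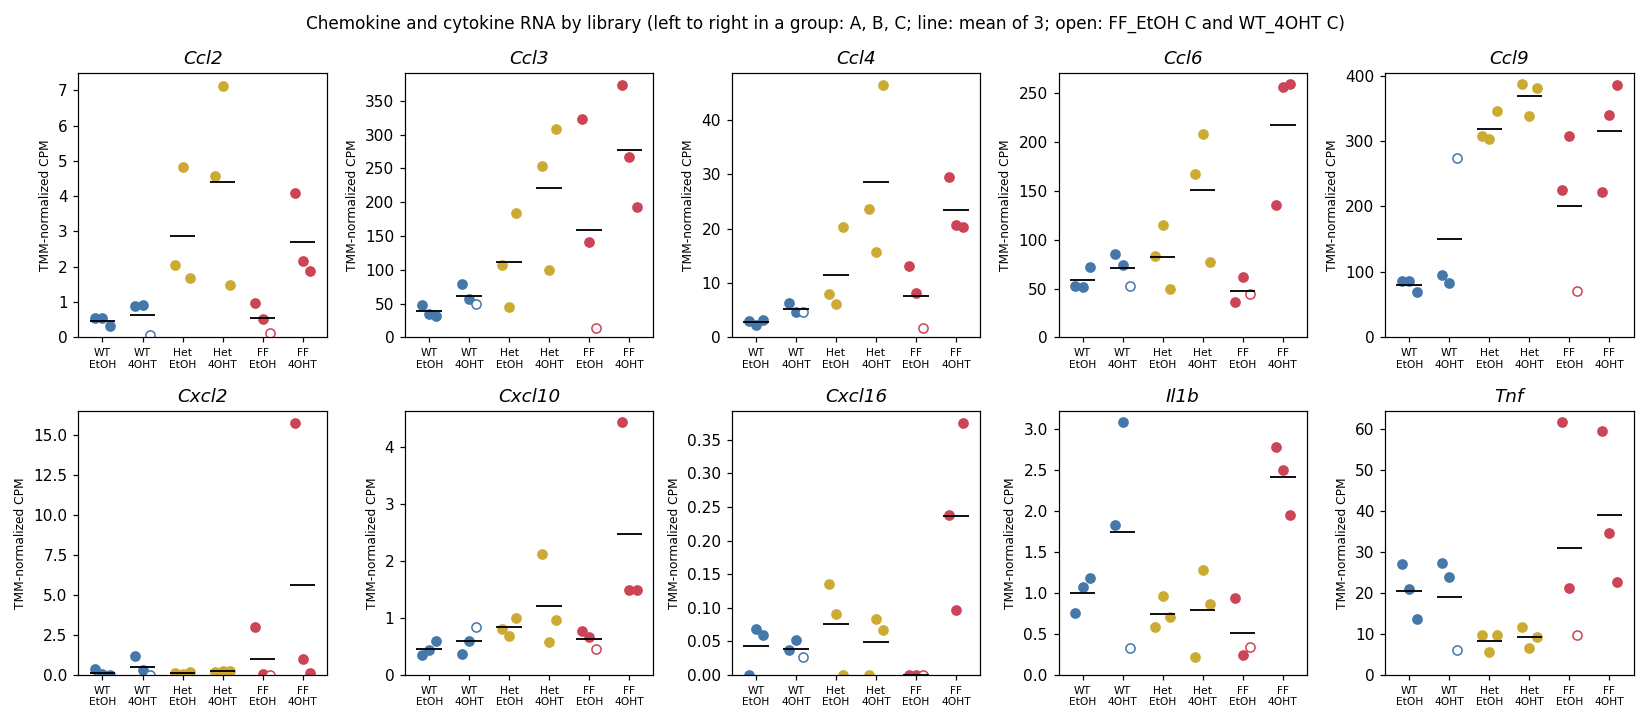
TMM-normalized CPM of each gene in all 18 libraries, on linear axes from 0, with points for libraries A to C from left to right in each group and a line at the mean of 3. Open points are the displaced libraries (FF_EtOH C and WT_4OHT C). All 3 FF_4OHT libraries lie above all 3 FF_EtOH libraries for Ccl2, Ccl4, Ccl6, Cxcl10, Cxcl16 and Il1b.

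After deletion of both Ddx41 alleles, Ccl6, Il1b and Cxcl10 rose between 3.90-fold and 4.73-fold (ratios of group means). Ccl2 and Ccl4 had 5.0-fold and 3.05-fold higher means with no overlap between groups, but missed the threshold. Tnf, Ccl3 and Ccl9 were at 1.26-fold to 1.74-fold, with overlapping groups. In bulk RNA, a change in the number of expressing cells and a change in RNA per cell cannot be told apart. The count filter kept 9 of the 10 genes (not Cxcl16), and 3 of these 9 were called higher and 0 lower with edgeR at an adjusted p of 0.05, where 5.16% of all 12859 tested genes were called higher and 8.29% lower. The log2 fold change was above 0 in all 9, with a median of 1.96 against -0.02 over all tested genes. It was also above 0 in all 9 in Het (median 0.62) and in 8 of the 9 in WT (median 0.69). Over all tested genes those medians were 0.0009 and 0.003. The FF response minus the WT response had a median of 0.72. Without the displaced libraries that difference had a median of 0.16, with medians of 1.77 in FF (8 of the 9 above 0) and 0.82 in WT (all 9). In 5 of the 9, no FF_4OHT library overlapped the FF_EtOH libraries on the higher side, against 18.7% of all tested genes, and in 0 on the lower side, against 21.5%. DESeq2 called 5 of the 9 higher, adding Ccl2 and Ccl4, where it called 7.46% of the 13264 genes to which it gave an adjusted p.

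Ccl6, a CC chemokine made by myeloid cells in mice, had 35.8, 61.8 and 44.0 CPM in FF_EtOH A, B and C and 135, 257 and 259 CPM in FF_4OHT. Every treated library exceeded every ethanol library by more than 2-fold. The log2 fold change was 2.20 ± 0.38 (SE; edgeR adjusted p = 0.00157). It kept its call in every fit that was run, with values from 2.03 to 2.45, and was 2.15 without the displaced libraries (adjusted p = 0.00775). Ccl6 in FF_4OHT also exceeded all WT libraries, which lay between 51.3 and 85.2 CPM, but Het_4OHT A and B, at 167 and 208 CPM, lay above FF_4OHT A.

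Il1b, which encodes a cytokine that is secreted after caspase-1 cleavage, had 0.94, 0.25 and 0.34 CPM in FF_EtOH and 2.77, 2.50 and 1.96 CPM in FF_4OHT. The groups did not overlap, and the counts were low, with 39 reads over FF_EtOH and 194 over FF_4OHT. The log2 fold change was 2.25 ± 0.69 (edgeR adjusted p = 0.0422). The call was lost when FF_EtOH B (adjusted p = 0.140), FF_EtOH C (0.123) or any of the FF_4OHT libraries A to C (0.0956, 0.0959 and 0.0911) was left out, and without the displaced libraries plus WT_EtOH C (0.0540), with log2 values of 1.91 to 2.39 in those fits.

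Cxcl10, an interferon-induced ligand of Cxcr3, had 0.77, 0.68 and 0.46 CPM in FF_EtOH and 4.44, 1.49 and 1.5 CPM in FF_4OHT. Library A was about 3 times as high as the other treated libraries, which were still above all ethanol libraries. The log2 fold change was 1.96 ± 0.52 (edgeR adjusted p = 0.0215). Without FF_4OHT A it was 1.23 (adjusted p = 0.135), without FF_EtOH B 2.0 (0.0583), without FF_EtOH C 1.77 (0.0764), and without the displaced libraries 1.77 (0.0665).

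Ccl2, the main ligand of Ccr2 and a monocyte attractant, had 0.98, 0.53 and 0.11 CPM in FF_EtOH and 4.08, 2.18 and 1.87 CPM in FF_4OHT, a log2 fold change of 2.32 ± 0.78 (edgeR adjusted p = 0.0584, DESeq2 0.0145). Ccl4 had 13.2, 8.21 and 1.71 CPM in FF_EtOH and 29.5, 20.6 and 20.3 CPM in FF_4OHT, a log2 fold change of 1.61 ± 0.56 (edgeR adjusted p = 0.0689, DESeq2 0.0200). For both, the library labelled FF_EtOH C was the lowest of its group. Without it and WT_4OHT C, the log2 values were 1.85 for Ccl2 (edgeR adjusted p = 0.0811) and 1.14 for Ccl4 (0.145). Without FF_EtOH A, Ccl4 was at 2.24 and passed the threshold (0.0379).

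Cxcl2, a ligand of Cxcr2 that attracts neutrophils, had 3.02, 0.071 and 0 CPM in FF_EtOH and 15.7, 1.01 and 0.12 CPM in FF_4OHT. Library A was the highest of both groups, and the log2 fold change of 2.46 ± 1.45 (edgeR adjusted p = 0.294) became -0.81 when FF_4OHT A was left out and 7.11 (adjusted p = 0.0507) when FF_EtOH A was. Cxcl16, which is made as a membrane-bound ligand of Cxcr6, had 0 counts in all 3 FF_EtOH libraries and 6, 3 and 9 counts in FF_4OHT. Against a floor of 3 counts over the FF_EtOH group the ratio was 5.92 after 4OHT, which leaves out counting error in FF_4OHT. The 95% counting intervals were 0 to 0.047 CPM in FF_EtOH and 0.13 to 0.36 CPM in FF_4OHT. Cxcl16 did not pass the filter on low counts. Without that filter the edgeR adjusted p was 0.0290, and DESeq2 gave no adjusted p. In the other lines Cxcl16 had 4 counts over each WT group (ratio 0.86, 95% counting interval 0.16 to 4.63) and 10 counts in Het_EtOH against 5 in Het_4OHT (ratio 0.59, 0.16 to 1.89).

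Tnf had 61.6, 21.3 and 9.75 CPM in FF_EtOH and 59.5, 34.6 and 22.6 CPM in FF_4OHT, and the groups overlapped (log2 0.33 ± 0.58, 95% interval -0.90 to 1.57, edgeR adjusted p = 0.760). Ccl3, the most abundant of the genes per kilobase in FF_4OHT, had 322, 142 and 13.6 CPM in FF_EtOH and 373, 267 and 193 CPM in FF_4OHT (log2 0.80 ± 0.72, adjusted p = 0.510). Ccl9 had 225, 307 and 71.4 CPM in FF_EtOH and 222, 340 and 385 CPM in FF_4OHT (log2 0.65 ± 0.44, adjusted p = 0.362). The groups also overlapped for Ccl3 and Ccl9, and the library labelled FF_EtOH C was the lowest of the 6 for each of these 3 genes. Without it and WT_4OHT C, the log2 values were -0.09 for Tnf (95% interval -1.05 to 0.87), 0.26 for Ccl3 (-0.87 to 1.39) and 0.25 for Ccl9 (-0.18 to 0.68).

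**Figure D2:**
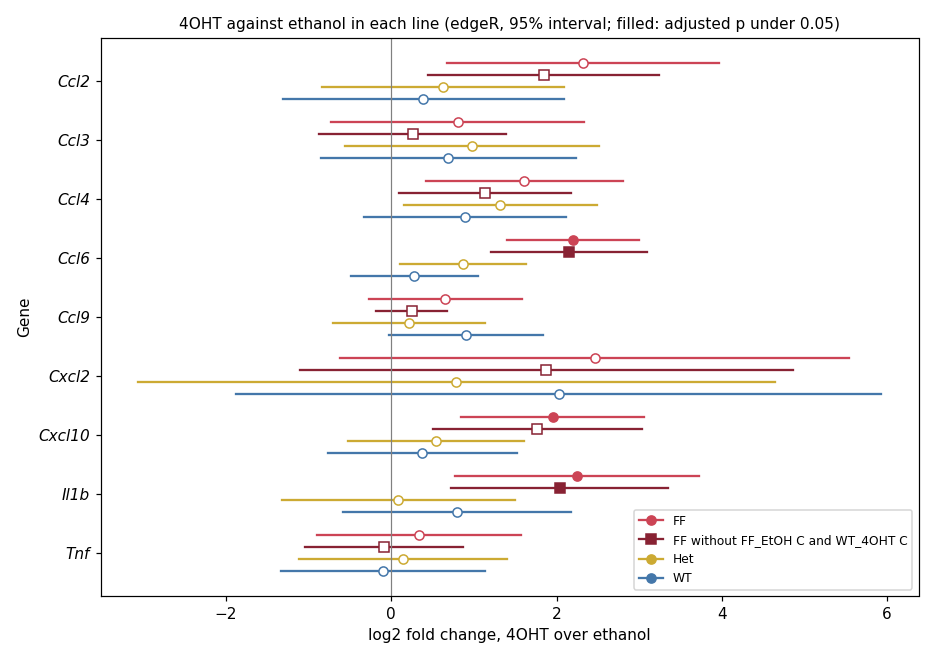
Log2 fold change of 4OHT over ethanol for the 9 tested genes in FF, Het and WT lines, with 95% intervals from edgeR. Circles are fits to all 18 libraries, squares the FF response without the displaced libraries, and filled symbols an adjusted p under 0.05. Filled symbols occur in the FF line alone, for Ccl6 and Il1b in both fits and for Cxcl10 in the fit to all libraries.

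In Het cells, where 1 allele is deleted, Ccl3, Ccl4, Ccl6, Ccl9 and Cxcl2 were higher in CPM with 4OHT at every letter. That is 5 of the 9 tested genes against 14.2% of all tested genes. Cxcl2 rested on few reads, with 7, 3 and 6 counts in Het_EtOH A, B and C and 6, 10 and 8 in Het_4OHT. The groups overlapped, however, and edgeR called none of the 9. Of all tested genes, 0.0156% were called in either direction. None of the 9 had separate groups, against 2.23% of all tested genes on the higher side and 2.71% on the lower. At an unadjusted p of 0.05, edgeR counted 2 of the 9 (Ccl4 and Ccl6) and 1.91% of all tested genes, and DESeq2 called 0 of the 9. Letters pair the Het libraries, as libraries of the same letter deviated together from their group means. With the letter as a block, 1 gene rather than 2 was called over all genes, and 0 of the 9.

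Ccl4 had 7.95, 6.16 and 20.2 CPM in Het_EtOH A, B and C and 23.7, 15.6 and 46.3 CPM in Het_4OHT, which are ratios of 2.98, 2.53 and 2.29 within a letter (log2 1.32 ± 0.55, edgeR adjusted p = 1). Ccl6 had 83.7, 115 and 49.6 CPM in Het_EtOH and 167, 208 and 77.2 CPM in Het_4OHT, with ratios of 2.0, 1.81 and 1.56 (log2 0.87 ± 0.36, adjusted p = 1). Ccl3 had 107, 45.7 and 183 CPM and then 253, 100.4 and 308 CPM, with ratios of 2.36, 2.20 and 1.68 (log2 0.98 ± 0.72, adjusted p = 1). For these genes the highest and lowest letters of Het_EtOH differed by more than the treatments did within any letter. Letters A and B of Ccl4 and of Ccl6 in Het_EtOH differed by less. The ratios within a letter were alike in size. With the block, the adjusted p was 0.653 for Ccl4 and 0.563 for Ccl6. Among the others, Il1b changed by ratios of 0.39, 1.33 and 1.22, Cxcl10 by 2.61, 0.84 and 0.95, Ccl2 by 2.22, 1.47 and 0.89, Tnf by 1.22, 1.19 and 0.95, Ccl9 by 1.26, 1.12 and 1.10, and Cxcl2, at 0.28 CPM or less in every library, by 1.42, 3.08 and 1.31.

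**Figure D3:**
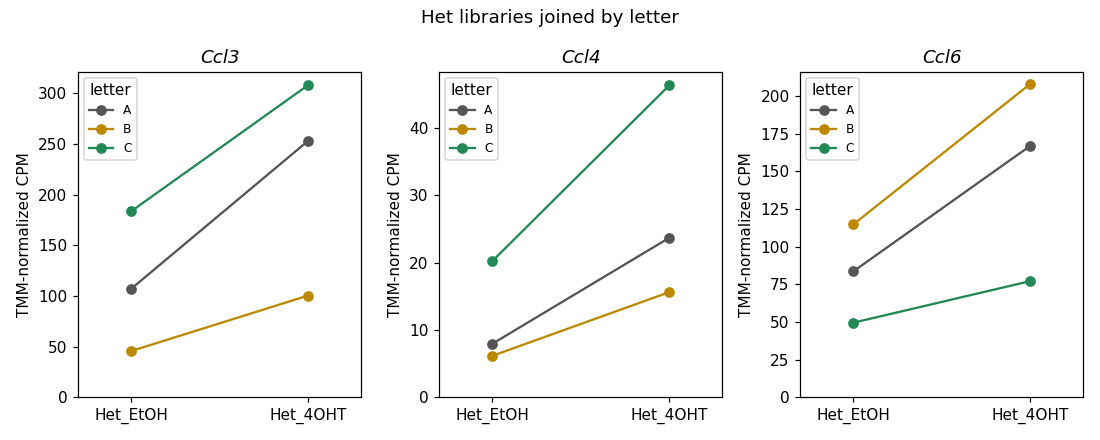
TMM-normalized CPM of Ccl3, Ccl4 and Ccl6 in Het_EtOH and Het_4OHT, on linear axes from 0, with lines that join libraries of the same letter. Each line rises, from 1.56-fold for Ccl6 at letter C to 2.98-fold for Ccl4 at letter A.

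In WT cells, where 4OHT has no floxed allele to delete, edgeR called none of the 9 genes and 0% of all tested genes. None of the 9 reached an unadjusted p of 0.05 in edgeR, as 2.14% of all tested genes did, and DESeq2 called 0 of the 9. Ccl3 had 48.7, 34.6 and 31.96 CPM in WT_EtOH and 79.0, 56.8 and 49.7 CPM in WT_4OHT (log2 0.69 ± 0.73). Ccl4 had 2.94, 2.31 and 3.13 CPM and then 6.28, 4.76 and 4.61 CPM (log2 0.89 ± 0.58). For these 2 genes of the 9 the treated libraries did not overlap the ethanol libraries on the higher side, against 2.85% of all tested genes, and for 0 on the lower side, against 1.97%. Ccl6 had 52.2, 51.3 and 72.0 CPM and then 85.2, 74.5 and 53.0 CPM (log2 0.28 ± 0.36). Here 72.0 CPM is the library labelled WT_EtOH C and 53.0 CPM the library labelled WT_4OHT C, both of them doubted. In libraries A and B, the treated values (85.2 and 74.5 CPM) lay above the ethanol values (52.2 and 51.3 CPM). The ratio of group means was 1.21 with all libraries and 1.37 without the displaced libraries.

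Several WT values turn on the library labelled WT_4OHT C. Ccl9 had 85.9, 86.8 and 69.9 CPM in WT_EtOH and 95.3 and 83.3 CPM in A and B of WT_4OHT, but 274 CPM in the displaced library of that group, a level in the range of the FF libraries. Conversely, Il1b was at 1.83 and 3.08 CPM in A and B against 0.76, 1.07 and 1.18 CPM in WT_EtOH, and at 0.33 CPM in the library labelled C. Without the displaced libraries the WT response of Ccl9 was 0.14 on the log2 scale instead of 0.90, that of Tnf 0.32 instead of -0.10 and that of Il1b 1.29 instead of 0.79 (adjusted p = 1 for each, edgeR, as with all libraries). Ccl2 was at 0.56, 0.55 and 0.33 CPM in WT_EtOH and at 0.90, 0.91 and 0.082 CPM in WT_4OHT. Cxcl10 stayed between 0.36 and 0.84 CPM, and Cxcl2 reached 1.2 CPM in WT_4OHT A and no more than 0.36 CPM in the other WT libraries.

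Whether the FF response exceeded that of the other lines was tested directly, in comparisons that share the FF libraries. None of the 9 genes was called in edgeR, where 2.30% of all tested genes were called for FF minus WT (0.412% higher and 1.89% lower) and 2.50% for FF minus Het (0.404% higher and 2.09% lower). At an unadjusted p of 0.05, edgeR counted 1 of the 9 against WT, where 15.3% of all tested genes passed, and 2 against Het, where 16.3% did. DESeq2 called 1 and 0 of the 9. Ccl6 came closest, with a response 1.92 ± 0.51 log2 units above WT (95% interval 0.83 to 3.01, edgeR adjusted p = 0.0654, DESeq2 0.00622) and 1.33 ± 0.51 above Het (0.25 to 2.42, edgeR adjusted p = 0.196). Without the displaced libraries these were 1.70 (edgeR adjusted p = 0.194) and 1.29 (0.241). With all libraries, the Ccl2 response had as large an estimate with a wider spread. It was 1.93 ± 1.11 above WT (edgeR adjusted p = 0.429) and 1.70 ± 1.03 above Het (0.445). The Cxcl2 response was 0.44 ± 2.59 above WT (0.965) and 1.7 ± 2.37 above Het (0.788). When the displaced libraries were left out, the ratio of group means for Ccl2 was 3.59 in FF and 1.89 in WT. For Cxcl2 the ratio was then smaller in FF (3.64) than in WT (5.86). The Cxcl10 response was 1.58 ± 0.75 above WT (adjusted p = 0.331) and that of Il1b 2.16 ± 0.96 above Het (0.277) and 1.46 ± 0.94 above WT (0.496). Without the displaced libraries the difference of Il1b from WT was 0.75. For Ccl3, Ccl4, Ccl9 and Tnf the difference from WT lay between -0.25 and 0.72 with all libraries, with intervals of up to 2.40 and down to -2.05. The difference from WT was above 0 in 8 of the 9 genes with all libraries, and in 6 of the 9 without the displaced libraries.

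The lines already differed in ethanol, before any deletion. Het cells had more Ccl2, Ccl4 and Ccl9 than WT cells, by log2 2.58 ± 0.78 (edgeR adjusted p = 0.0236), 2.03 ± 0.58 (0.0180) and 1.98 ± 0.45 (0.00437). These are 3 of the 9 tested genes called higher and 0 lower, where 23.7% of all tested genes were called in either direction, that is 13.3% higher and 10.4% lower. Ccl9 had 307, 303 and 347 CPM in Het_EtOH, and Ccl2 had 2.05, 4.84 and 1.69 CPM, all above the WT_EtOH values. The call of Ccl9 held with each library left out. That of Ccl2 was lost without WT_EtOH A, B or C (adjusted p = 0.0620, 0.0647 and 0.0840) or Het_EtOH B (0.11), and that of Ccl4 without WT_EtOH A (0.0542), WT_EtOH B (0.0717) or Het_EtOH C (log2 1.34, 0.119). Cxcl10 also lay higher in Het_EtOH without overlap, at 0.81, 0.69 and 1.01 CPM against 0.36, 0.45 and 0.59 CPM, giving 4 genes on that side against 22.5% of all tested genes (log2 0.83 ± 0.53, edgeR adjusted p = 0.295).

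Tnf went the other way. It had 9.71, 5.53 and 9.71 CPM in Het_EtOH against 27.0, 21.0 and 13.7 CPM in WT_EtOH, with no overlap, as did 22.8% of all tested genes on the lower side (log2 -1.30 ± 0.60, edgeR adjusted p = 0.133). Without the displaced libraries, which are in neither of these groups but share in the estimate of the spread, the same difference passed the threshold (0.0310), as did Ccl3 at 1.54 (0.0282, against 0.151 with all libraries). When WT_EtOH C was left out as well, Tnf kept its call (0.0264) and Ccl3 did not (1.48, 0.0838).

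FF and WT cells in ethanol showed 0 calls among the 9 genes and 0% of all tested genes with all libraries, with 3 of the 9 and 5.50% of all tested genes at an unadjusted p of 0.05 in edgeR, and 0 of the 9 called by DESeq2. None of the 9 had separate groups, against 4.11% of all tested genes on the higher side and 4.95% on the lower. Here the library labelled FF_EtOH C is 1 of 3 in its group, and it lay below both other FF_EtOH libraries for Ccl2, Ccl3, Ccl4, Ccl9, Cxcl2, Cxcl10 and Tnf. Without it and WT_4OHT C, Ccl9 was 1.72 ± 0.20 log2 units higher in FF (edgeR adjusted p = 6.59e-05, against 1.32 and 0.757 with all libraries), Ccl3 2.59 ± 0.53 (0.00889, against 2.05 and 0.824) and Ccl4 1.93 ± 0.49 (0.0355, against 1.46 and 0.846), where 4.71% of all tested genes were called. When WT_EtOH C was left out as well, Ccl9 (0.00059) and Ccl3 (0.0452) kept their calls and Ccl4 did not (0.0838). FF_EtOH then has 2 libraries.

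Between FF and Het in ethanol, Ccl2 was lower in FF (log2 -2.40 ± 0.77, edgeR adjusted p = 0.0433) and Tnf higher (1.89 ± 0.60, 0.0420), where 16.8% of all tested genes were called, 7.74% higher and 9.04% lower. The groups did not overlap for either gene, as held for 19.0% of all tested genes on the higher and 18.7% on the lower side, but for Tnf the gap was narrow, since its lowest FF_EtOH library had 9.75 CPM and its highest Het_EtOH library 9.71 CPM. The Tnf call was lost without FF_EtOH A (log2 0.90, adjusted p = 0.349) or Het_EtOH A, B or C (0.0847, 0.169 and 0.0871), and rose to 2.31 without the displaced libraries (0.00294). The Ccl2 call was lost without FF_EtOH B (0.107), FF_EtOH C (0.132), Het_EtOH A (0.0572) or Het_EtOH B (0.195), and without the displaced libraries (-1.92, 0.0599). The comparisons of lines share their ethanol libraries, so they are not independent of each other.

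**Figure D4:**
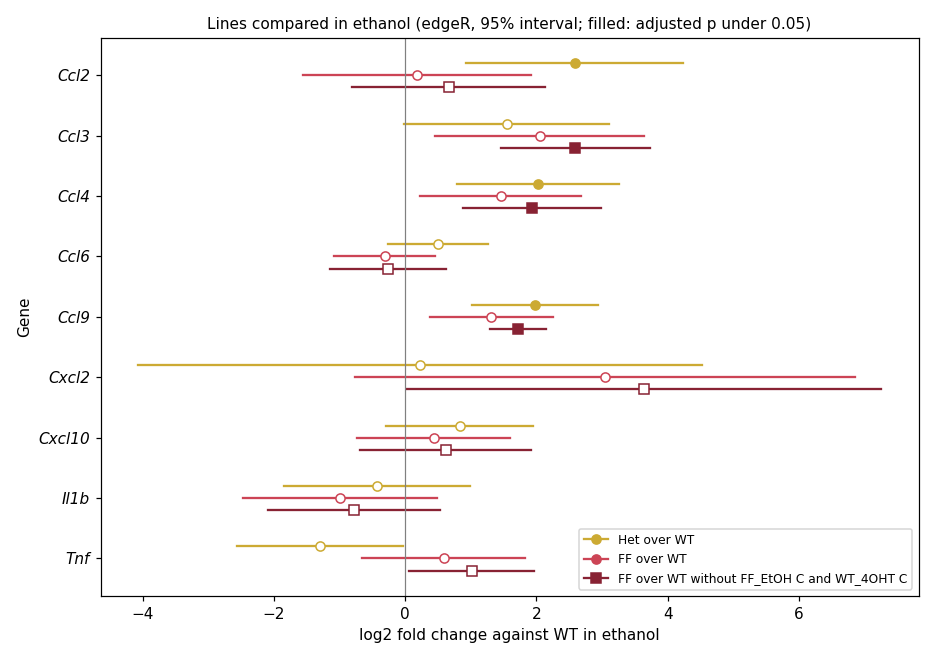
Log2 fold change against WT in ethanol for the 9 tested genes, with 95% intervals from edgeR, for Het (yellow circles), FF with all libraries (red circles) and FF without the displaced libraries (dark squares). Filled symbols have an adjusted p under 0.05. Ccl4 and Ccl9 are filled for Het and for FF without the displaced libraries, Ccl2 for Het alone, and Ccl3 for FF without the displaced libraries alone.

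Other genes of the same pathways were read from lists. The share to set beside each list in the FF response is 13.4% of all 12859 tested genes called, 5.16% higher and 8.29% lower. Among 30 further chemokines, 7 were tested after deletion in FF cells, and 1 rose and 0 fell. That gene, Ccl7, a monocyte attractant and ligand of Ccr2, had 0.082, 0.11 and 0.038 CPM in FF_EtOH and 1.07, 0.91 and 0.79 CPM in FF_4OHT (log2 3.54 ± 0.85, edgeR adjusted p = 0.0121), and kept its call in every fit run. Its counts were 1 to 3 per library in FF_EtOH and 19 to 28 in FF_4OHT. Of 23 chemokine receptors, 10 were tested. Ccr1, the receptor that Ccl3, Ccl6 and Ccl9 bind, rose from 23.4 ± 2.87 to 58.8 ± 8.30 CPM (log2 1.33 ± 0.30, adjusted p = 0.00897). Cxcr4, the receptor for Cxcl12 that retains progenitors in marrow, fell from 186 ± 34.2 to 138 ± 12.8 CPM (log2 -0.43 ± 0.13, adjusted p = 0.0363), a call lost without the displaced libraries (log2 -0.31, adjusted p = 0.123) and without FF_EtOH A or C or any FF_4OHT library (up to 0.148).

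Of 15 NF-kB subunits and inhibitors, all tested, 2 rose and 0 fell, where 13.4% of all tested genes were called in either direction. The list is thus near the share over all genes. Nfkbia, which encodes the inhibitor IkB-alpha and is itself an NF-kB target, had 48.98, 29.1 and 36.96 CPM in FF_EtOH and 110, 72.0 and 101 CPM in FF_4OHT (log2 1.3 ± 0.26, edgeR adjusted p = 0.00464). Relb, a subunit of the noncanonical branch, had 2.41, 1.31 and 2.66 CPM and then 8.32, 5.04 and 7.49 CPM (log2 1.71 ± 0.39, adjusted p = 0.00991). Neither gene's groups overlapped, as held for 18.7% of all tested genes on the higher side. Of 19 tested genes for receptors and processing of interleukin-1 and tumor necrosis factor, Irak1, a kinase downstream of the interleukin-1 receptor, fell (log2 -0.51 ± 0.11, adjusted p = 0.00554), and Adam17, the protease that releases tumor necrosis factor from the membrane, rose (0.48 ± 0.12, 0.0183). The Adam17 call was lost without FF_EtOH A (0.0774), FF_4OHT B (0.0608) or FF_4OHT C (0.10). None of 15 other tested cytokines (among them Mif at -0.41 ± 0.24 and Tgfb1 at -0.44 ± 0.17) and none of 8 cytokine mRNA decay factors (among them Cnot1 at -0.23 ± 0.21 and Zfp36l2 at -0.51 ± 0.31) passed. In Het and WT, edgeR called 0 genes of any of these lists after 4OHT.

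Markers of monocytes and macrophages moved in the same samples. Of 20 listed, 14 were tested, and 5 rose and 0 fell in the FF response, with a median log2 fold change of 1.33. Of all tested genes, 5.16% rose and 8.29% fell. Their summed level was 2669 to 3488 CPM in FF_EtOH and 3948 to 4953 CPM in FF_4OHT. It was 2664 to 2860 CPM in WT_EtOH, 2802 to 3201 CPM in WT_4OHT, 2880 to 4166 CPM in Het_EtOH and 2195 to 3839 CPM in Het_4OHT. Lyz2, which encodes lysozyme, was at 225, 277 and 186 CPM in FF_EtOH and 978, 1195 and 1352 CPM in FF_4OHT. It made up the largest part of the rise of the FF sum. The means of the other 4 that rose went from 65.5 to 267 CPM for Mpeg1, from 39.7 to 155 CPM for the lysosomal protease gene Ctss, from 6.26 to 49.6 CPM for the lectin gene Clec4n and from 2.56 to 18.6 CPM for the scavenger receptor gene Msr1. Mrc1, the macrophage mannose receptor gene, had means of 7.99 and 45.9 CPM (log2 2.52 ± 1.10, edgeR adjusted p = 0.144). The log2 fold change was above 0 in 12 of the 14. It was below 0 for Fcgr1 (-0.60 ± 0.46) and Ly6c2 (-0.10 ± 0.22), and F13a1 was at 0.13 ± 0.55. Ly6c2 had means of 1997 CPM in FF_EtOH and 1868 CPM in FF_4OHT. Of the defining markers of mature macrophages, Cd163 and C1qa were near 0, with 0 counts in 13 of the 18 libraries each, and Ms4a7 had means of 0 CPM in FF_EtOH and 0.40 CPM in FF_4OHT. Among progenitor markers Mpo (log2 -2.02 ± 0.60, edgeR adjusted p = 0.0346) and Myb (-0.33 ± 0.10, 0.0453) fell. Of the dendritic markers, Cd74 (2.56 ± 0.64, 0.0155) and Itgax (2.07 ± 0.57, 0.0253) rose, while Cd209a and Siglech had 0 counts in all libraries. Of the remaining lists, the neutrophil marker Mmp8 (2.63 ± 0.50, 0.00311) and the megakaryocyte marker Vwf (1.86 ± 0.47, 0.0160) rose and the lymphoid marker Nkg7 (-0.96 ± 0.27, 0.0294) fell. Each was the only call of its list, out of 9, 5 and 2 tested. The 9 neutrophil markers had a median log2 fold change of 0.27, with 7 above 0. The means of Camp and S100a8 were lower in FF_4OHT, going from 52.7 to 38.0 CPM and from 409 to 376 CPM. No mast cell or basophil, erythroid or stromal marker passed, with Hdc at -0.87 ± 0.29, Car2 at 0.11 ± 0.42 and Pecam1 at -0.28 ± 0.41. With single libraries left out, the calls of Lyz2 and Mmp8 held. Those of Mpo (without FF_EtOH A or C, or FF_4OHT B or C, up to 0.161), Myb (without FF_EtOH B or C, or any FF_4OHT library, up to 0.243), Cd74 (without FF_4OHT C, 0.0670), Itgax (without FF_EtOH B or C, or FF_4OHT B or C, up to 0.108), Vwf (without FF_EtOH A or B, or FF_4OHT B or C, up to 0.0790) and Nkg7 (without FF_EtOH A or B, or FF_4OHT B or C, up to 0.144) were lost, with the edgeR adjusted p in brackets. Without the displaced libraries, Myb (0.145) and Itgax (0.0939) were not called either. Rn45s, the ribosomal RNA precursor, had its highest group mean in FF_4OHT, with 5987, 18286 and 41160 CPM against 3828 to 6464 CPM in FF_EtOH, and that response was not called (log2 2.14 ± 0.72, edgeR adjusted p = 0.0586). Het_4OHT A had 14895 CPM, and 1 ethanol library of each line exceeded FF_4OHT A. The part of any of these in the rise of Ccl6, Il1b and Cxcl10 was not tested.

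For each gene called in the FF response, the tested genes with the most similar pattern were found by the root mean square difference of log2 CPM, centred on each gene's mean over the 18 libraries. For Ccl6 these were Lyz2 (0.31), Adora2b, an adenosine receptor gene (0.37), and Creg2 (0.37), against a median of 0.94 over 12850 genes. For Cxcl10 they were Gas8 (0.48), Snord104 (0.50) and Serpina3f (0.51), against a median of 0.93. For Il1b they were Egr2, a transcription factor gene of the early growth response family (0.60), 6330416G13Rik (0.61) and Rarres1 (0.61), against a median of 1.09. The nearest gene was thus closer for Ccl6 than for Cxcl10 or Il1b, which have far fewer counts.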

How the data were processed

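RNA-seq counts of 18 libraries were used. The authors deposited whole-number counts per gene symbol, not normalized. The mm10 build is named beside the tools HISAT2 2.0.5, featureCounts 1.5.2, Subread, FastQC 0.11.7 and CASAVA 1.4, with no order or settings, per the submitters' processing notes. The strand setting, annotation and treatment of multiply mapped reads are not given in these sources. The genes and lists were chosen with earlier results of these data known. The naming rule took all 10 genes, and from each list up to 4 genes called in the FF response or, where none was, 2 of the most abundant.

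Counts were fitted with edgeR 4.0.16 (R 4.3.3) in 1 model of 18 libraries, with TMM scaling, filterByExpr (minimum count 10), the robust quasi-likelihood F test and Benjamini-Hochberg adjustment over 12859 genes (threshold 0.05). The fit was checked on simulated data. CPM values are TMM-normalized. Standard errors are the log2 fold change over the square root of F. Alternatives were DESeq2 1.42.0, its size factors, no count filter, a replicate block, each library left out in turn, and fits without the doubted libraries. Same-letter libraries correlated in Het (0.48, 0.70 and 0.40 for A, B and C), so letters pair that line. Of 153 library pairs, 0 were identical. Counting intervals (95%) and floors cover counting error only. Coordinates are from GENCODE M21.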

Additional observations from a re-analysis of the deposited data

How the results depend on the processing

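Ccl6 in the FF response was called in every fit run. Counts of called genes that moved by over 1.5 times are given as genes over the whole table, then genes of the 10. Of the 10, edgeR tested 9 in every fit but the one without a count filter. With DESeq2, the FF response had 5 of the 10 (edgeR 3), Het 17 genes (edgeR 2), WT 4 (edgeR 0), FF minus WT 645 and 1 (edgeR 296 and 0), FF minus Het 714 (edgeR 321) and FF against WT in ethanol 27 (edgeR 0). Without a count filter, FF minus WT had 172 genes, FF minus Het 213, and FF against Het in ethanol 0 of the 10 (2 with the filter). Without the displaced libraries (FF_EtOH C and WT_4OHT C), FF minus WT had 118 genes, Het against WT in ethanol 5 of the 10 (3 with all libraries), FF against WT in ethanol 614 and 3, and FF against Het in ethanol 1 of the 10. Without these and WT_EtOH C, the FF response had 1 of the 10, Het 12 genes, WT 4, FF minus WT 72, FF against WT in ethanol 479 and 2, and FF against Het in ethanol 1 of the 10. Without the displaced libraries, 25.8% of all tested genes were called for Het against WT and 15.7% for FF against Het, both in ethanol. With WT_EtOH C left out as well, 13.1% were called in the FF response and 16.1% for FF against Het in ethanol. The cause of these shifts was not tested.

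With a replicate block, the FF response had 2763 genes (without it 1729) and 6 of the 10, adding Ccl2, Ccl4 and Cxcl2, Het 1 gene, FF minus WT 630 and 1, and FF minus Het 755 and 1, Ccl6 in both (adjusted p = 0.0103 and 0.0268). In FF and WT the deviations of same-letter libraries correlated less (0.17, 0.18 and 0.07 in FF for A, B and C, 0.39, -0.02 and 0.25 in WT). The group means behind these deviations include the displaced libraries, so the correlations cannot decide whether letters pair FF or WT. The block was therefore kept as an alternative.

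With 1 library left out at a time, calls ranged over 700 to 1293 genes and 1 to 4 of the 10 for FF, 0 to 1 genes for Het, 83 to 249 for FF minus WT, 68 to 479 for FF minus Het, 1 to 3 of the 10 for Het against WT in ethanol, 0 to 1 genes for FF against WT in ethanol, and 1332 to 1894 genes and 0 to 1 of the 10 for FF against Het in ethanol. Of 972 log2 fold changes of the genes under alternatives, 17 gained a call and 30 lost one, and no called value changed sign. Of the 859 called in neither fit, 65 changed sign. Ccl2, Cxcl2, Cxcl10, Cxcl16 and Il1b had means near 1 CPM or less in WT_EtOH, from 4 (Cxcl16) to 90 (Il1b) counts over the group. Their values there rest on few reads, and the part of depth in their spread was not tested.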
